A study of Mus musculus with 15 samples.

Results

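The autophagy machinery and receptors are 36 mouse genes that build the autophagosome or tie cargo to it, chosen by symbol. Earlier results of these data were known when they were chosen. All 36 had a row among the 23337 genes of the count table (Atg101 under an older symbol, 9430023L20Rik), and all 36 were among the 11814 genes with enough counts to be tested. They were measured in purified cardiomyocytes from hearts of 4-week-old Rosa-Cas9GFP mice injected on postnatal day 1 with an adeno-associated virus (AAV), a vector that delivers a gene to cells of the living animal. The groups were AAV-ATF4-2A-GFP, AAV-DDIT3-2A-GFP and the control AAV-GFP, with 5 libraries each, called ATF4, DDIT3 and GFP here. All 3 groups share the Cas9 and GFP genotype, the vector and the GFP it carries. The promoter that drives the vector's gene is not given in the sources used here, and no label says whether libraries came from separate animals. ATF4 is a transcription factor that is translated when the integrated stress response is active. DDIT3 (CHOP) is a transcription factor made under stress of the endoplasmic reticulum.

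Autophagy wraps cytoplasm in a double membrane, the autophagosome, and delivers it to the lysosome for breakdown. The ULK kinase complex starts the process. The class III phosphatidylinositol 3-kinase complex marks the forming membrane with a lipid that WIPI proteins read, and ATG9 and ATG2 proteins supply more lipid. A conjugation system attaches the Atg8 proteins (the LC3 and GABARAP families) to the membrane, where receptors such as p62 dock with their cargo. Cardiomyocytes rarely divide, and they use autophagy to clear worn mitochondria and protein aggregates. RNA levels show the supply of the parts and do not measure how fast autophagosomes form or are broken down.

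Total counts were 6217744 to 7514376 per library in ATF4, 7268663 to 8317249 in DDIT3 and 6680988 to 7963333 in GFP. Atf4 stood at 351 to 538 CPM (counts scaled to library size) in ATF4 libraries and 51.3 to 82.1 CPM in GFP libraries. Ddit3 stood at 664 to 1073 CPM in DDIT3 libraries and 13.4 to 16.6 CPM in GFP libraries. In the other vector group Ddit3 stood at 21.7 to 38.5 CPM (ATF4 libraries, all above GFP) and Atf4 at 43.65 to 101 CPM (DDIT3 libraries). Reads of the vector and of the cell's own gene are counted together. All 8 cardiomyocyte markers looked for were detected, and their summed level was 71800 to 94200 CPM in ATF4, 87400 to 98400 in DDIT3 and 89200 to 118000 in GFP. Endothelial markers summed to 899 to 1290 CPM in ATF4, 376 to 640 in DDIT3 and 394 to 790 in GFP, and 7 of 8 were higher in ATF4 than in GFP. These marker counts take the tested markers past an edgeR adjusted p of 0.05, in ATF4 against GFP unless stated. Of all tested genes 16.5% were higher and 15.6% lower by that threshold. Of the cardiomyocyte markers 4 of 8 were lower. Of the pericyte and smooth muscle markers (258 to 862 CPM in ATF4, 235 to 992 in DDIT3, 420 to 836 in GFP) 4 of 6 were higher. Of the fibroblast markers (233 to 665 CPM in ATF4, 137 to 380 in DDIT3, 202 to 479 in GFP) 1 of 7 was higher, and of the leukocyte markers (13 to 26.1 CPM in ATF4, 14.4 to 23.9 in DDIT3, 19.3 to 28.8 in GFP) 0 of 6. Erythroid markers summed to 1.17 to 6.67 CPM in ATF4, 0.694 to 3.87 in DDIT3 and 0.613 to 18.5 in GFP, with 2 of the 4 in the table at 0 in every library. In ATF4 against DDIT3, 8 of 8 endothelial, 4 of 6 pericyte and smooth muscle and 3 of 7 fibroblast markers were higher. There 3 of 8 cardiomyocyte markers were lower, and of 6 leukocyte markers 0 were higher or lower. The shares of all tested genes in that comparison were 17.8% higher and 16% lower. The part of these markers in the results below was not tested, and in bulk RNA fewer cells of a type and less RNA per cell cannot be told apart.

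The cardiomyocytes held the autophagy transcripts at widely different levels. To compare genes with each other, CPM were divided by the gene length in the deposited table (CPM per kilobase, or RPKM). In GFP libraries the highest member was Map1lc3a (561 ± 59.5 CPM per kilobase), which encodes LC3A, followed by Sqstm1 (258 ± 20.8), which encodes p62, a receptor that carries ubiquitin-tagged cargo to the autophagosome (SD, n = 5). Gabarap (167 ± 14.8) and Map1lc3b (143 ± 13.2), which encode further Atg8 proteins, came next on that scale, and their library ranges overlapped. The libraries of Map1lc3a all lay above those of Sqstm1, those of Sqstm1 above those of Gabarap, and those of Map1lc3b above those of the next gene, Atg9a. The lowest were Atg4a (3.28 ± 0.526 CPM per kilobase) and Atg4c (2.05 ± 0.349), which encode Atg8-processing proteases, so that the mean levels spanned 274-fold. Of the 36 members, 30 lay above the median of all tested genes on this scale in GFP. In ATF4 libraries Sqstm1 was the highest member, with 488 ± 60.9 CPM per kilobase, and Map1lc3a came after it with 395 ± 63.5. The library ranges of the pair overlapped (438 to 568 for Sqstm1 and 320 to 475 for Map1lc3a). In DDIT3 libraries Map1lc3a (563 ± 24) stayed above Sqstm1 (274 ± 43.9).

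**Figure D1:**
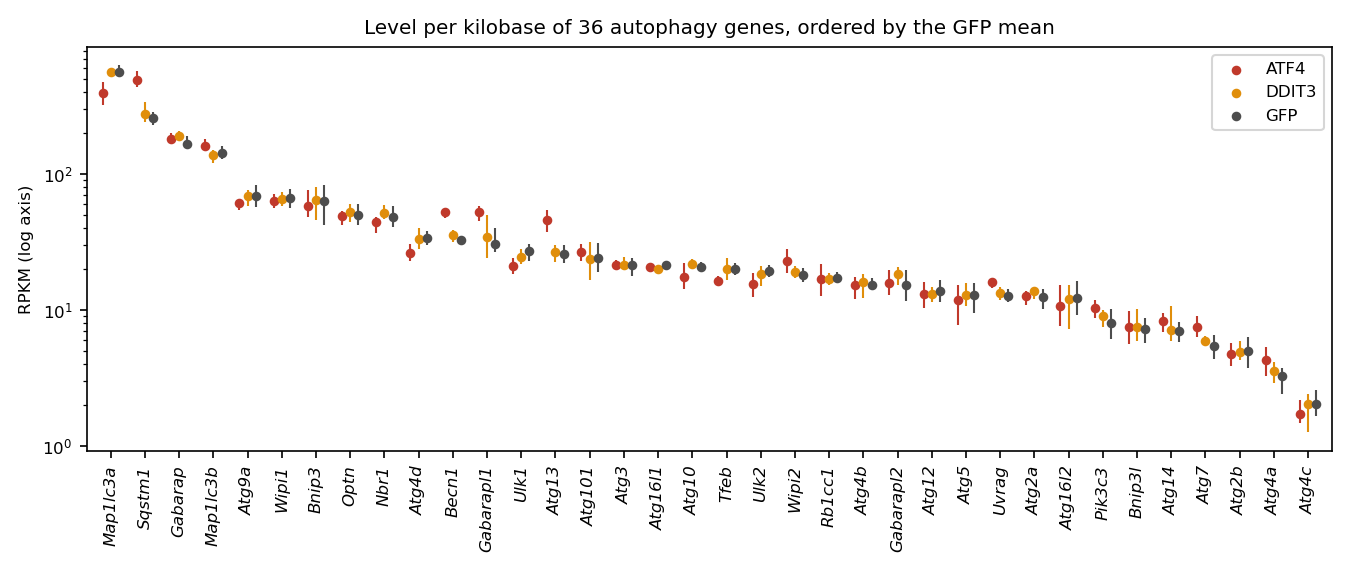
Level of each of the 36 members in RPKM, which is CPM per kilobase of gene length (vertical axis, log scale), with the genes along the horizontal axis in the order of their GFP means; points are group means and bars run from the lowest to the highest of 5 libraries. Map1lc3a leads in GFP (561) and Sqstm1 leads in ATF4 (488), while most members keep similar levels in the 3 groups.

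The first comparison asked what ATF4 did to these genes relative to GFP. Of the 36 members 7 rose (Atg13, Becn1, Uvrag, Wipi2, Atg7, Gabarapl1 and Sqstm1; 16.5% of all tested genes were called higher). Another 4 fell (Ulk1, Ulk2, Atg4d and Map1lc3a; 15.6% of all tested genes were called lower), and 25 did not pass. The test was edgeR's quasi-likelihood test with Benjamini-Hochberg adjustment over all tested genes and a threshold of 0.05, and a gene past it is called here. The 11 called members are 30.6% of the 36, against 32.2% called among all tested genes, so that the share of changed members lay near the background. The median log2 fold change of the members was -0.02 (0.02 over all tested genes), and the median size of their change regardless of sign was 0.18 (0.32 over all tested genes). Libraries of both groups did not overlap for 7 members, 5 of them above GFP (Atg13, Becn1, Uvrag, Gabarapl1 and Sqstm1; background 11.7% of tested genes) and 2 below (Map1lc3a and Tfeb; background 9.79%). The number of members that fell was 2 without ATF4 replicate 1 or GFP replicate 5. The direction of change was mixed within the initiation complex and within the Atg8 family.

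**Figure D2:**
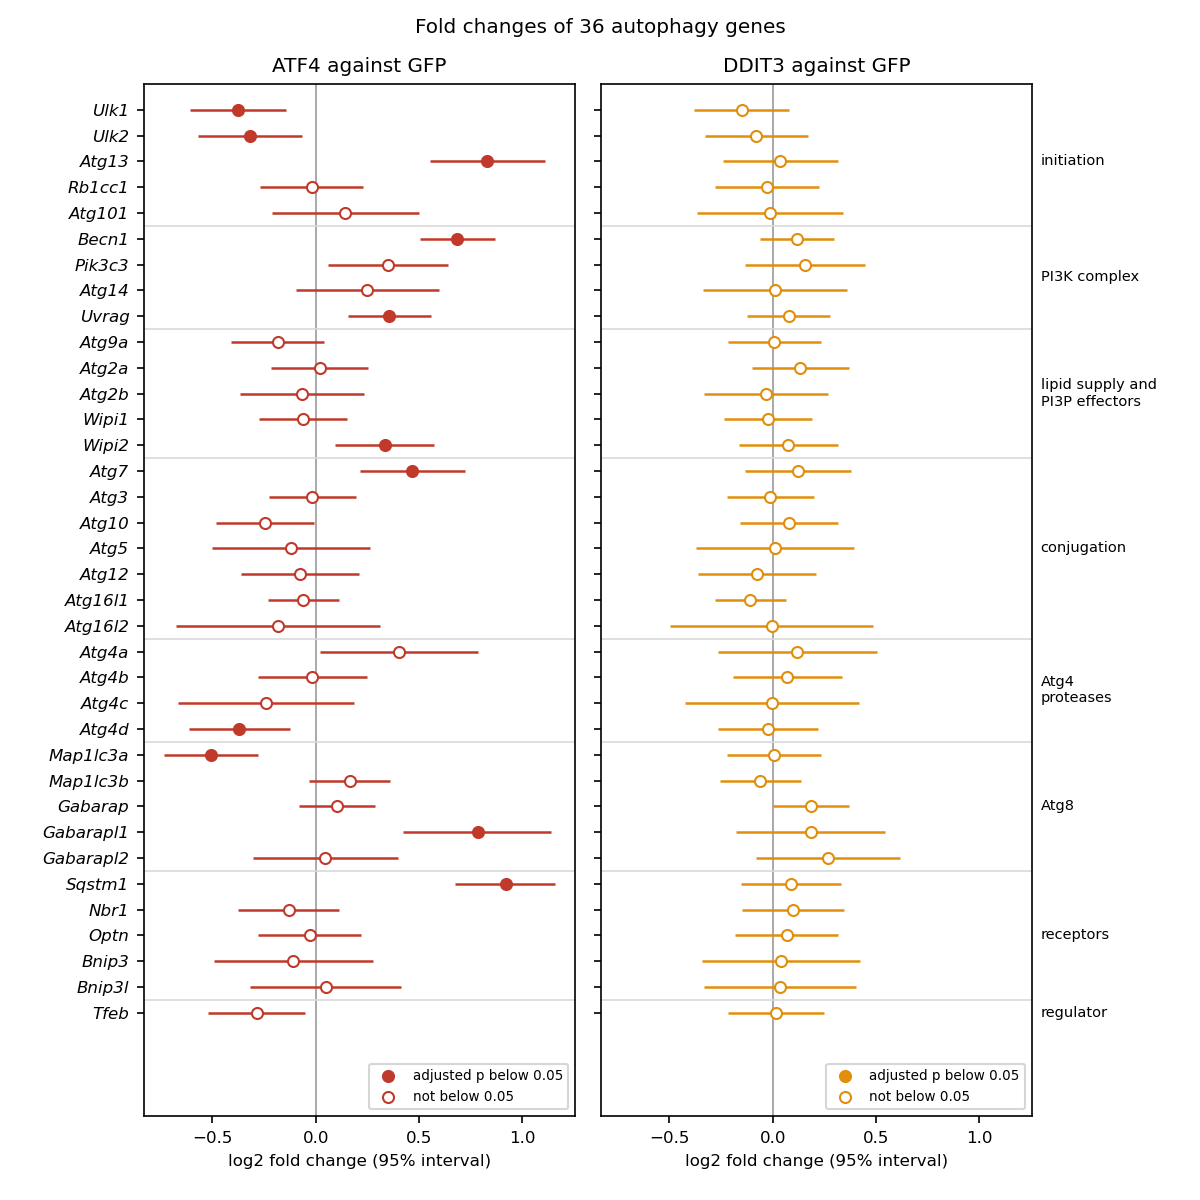
Log2 fold change of each of the 36 members, grouped by role, in ATF4 against GFP (left) and DDIT3 against GFP (right); bars are 95% intervals and filled points passed the adjusted p threshold. ATF4 moves 7 members up and 4 down against GFP, and no DDIT3 point passes.

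In the initiation complex Atg13 rose and both ULK kinases fell. Atg13, the adaptor that holds the ULK complex together, had 195, 191, 133, 133 and 171 CPM in ATF4 libraries, against 107, 87.6, 86.2, 79.0 and 104 CPM in GFP libraries. Every ATF4 library lay above every GFP library, and the log2 fold change was 0.83 ± 0.13 (SE; edgeR adjusted p = 1.15e-04). Ulk1, the kinase that starts autophagosome formation, had 124, 126, 104, 96.4 and 95.2 CPM in ATF4 libraries, against 148, 138, 147, 118 and 159 CPM in GFP libraries. Only the lowest GFP library (replicate 4) lay within the ATF4 range, and Ulk1 fell by 0.38 ± 0.11 on the log2 scale (edgeR adjusted p = 0.0143). Ulk2, its close relative, had 96.2, 108, 72.4, 85.2 and 91.2 CPM in ATF4 libraries, against 114, 102, 115, 110 and 124 CPM in GFP libraries. It passed narrowly, with a log2 fold change of -0.32 ± 0.12 (by edgeR, adjusted p = 0.0494). Its call was lost when any 1 of ATF4 replicates 1, 3, 4 and 5, DDIT3 replicates 1 and 3 or GFP replicates 1, 3, 4 and 5 was left out (adjusted p 0.0516 to 0.118; 0.0127 to 0.118 over 24 alternative settings). Ulk2 also lost it with no filter on low counts, a non-robust dispersion, only the 10 libraries compared and sex as a factor. The edgeR adjusted p in these was 0.0552, 0.0504, 0.0502 and 0.0625, and 14 of the 24 settings lost the call. Rb1cc1, which encodes the scaffold FIP200, and Atg101, which stabilises ATG13, gave log2 fold changes of -0.02 and 0.14 and were not called (edgeR adjusted p = 0.917 and 0.546). The level of Atg13 relative to Ulk1, per kilobase and within each library, averaged 2.19 (1.85 to 2.62) in ATF4 libraries, 1.09 in DDIT3 libraries and 0.950 (0.853 to 1.05) in GFP libraries, a ratio chosen after the values were seen and not tested.

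In the class III phosphatidylinositol 3-kinase complex, 2 of 4 members rose and none fell. Becn1, the Beclin 1 subunit on which the complex assembles, had 110, 96.0, 102, 114 and 112 CPM in ATF4 libraries, against 64.9, 65.3, 68.6, 70.2 and 62.7 CPM in GFP libraries. The groups lay far apart relative to their spread, and the fold change was 1.61 (edgeR adjusted p = 7.64e-06). Uvrag, the subunit of the complex that works on endosomes and late autophagosomes, had 58.9, 57.2, 49.8, 55.2 and 56.9 CPM in ATF4 libraries, against 48.7, 43.8, 42.6, 39.4 and 42.7 CPM in GFP libraries. Its groups did not overlap, with a smaller log2 fold change of 0.36 ± 0.10 (edgeR adjusted p = 0.00822). Pik3c3, the catalytic subunit VPS34, had 37.0, 34.9, 27.2, 29.0 and 31.4 CPM in ATF4 libraries, against 31.8, 24.4, 25.4, 24.1 and 19.1 CPM in GFP libraries. These ranges overlapped and the log2 fold change of 0.35 ± 0.14 did not pass (edgeR adjusted p = 0.0605). It did pass without ATF4 replicate 3 (0.0423) or GFP replicate 1 (0.0190), within a range of 0.0138 to 0.156 over the 24 settings. Atg14, which directs the complex to the early autophagosome, had a log2 fold change of 0.25 ± 0.17 and was not called (edgeR adjusted p = 0.263).

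Among the 5 genes that supply lipid or read the lipid mark, 1 rose. Wipi2, which binds the marked membrane and recruits the conjugation machinery, had 110, 89.4, 72.9, 94.9 and 80.6 CPM in ATF4 libraries, against 79.7, 76.5, 62.8, 72.3 and 63.7 CPM in GFP libraries. The groups overlapped, and the log2 fold change was 0.33 ± 0.11 (edgeR adjusted p = 0.0314). That call was lost without any 1 of ATF4 replicates 1 and 4 and GFP replicates 3, 4 and 5 (adjusted p 0.0522 to 0.105; 0.00406 to 0.105 over the 24 settings). Wipi2 also lost it with no filter on low counts and with only the 10 libraries compared (edgeR adjusted p = 0.0568 and 0.059). Its relative Wipi1 averaged 115 ± 9.31 CPM in ATF4 and 120 ± 14.3 CPM in GFP and was not called (edgeR adjusted p = 0.667, n = 5 each). Atg9a, the lipid scramblase carried by autophagosome seed vesicles, and the lipid transfer genes Atg2a and Atg2b gave log2 fold changes of -0.18, 0.02 and -0.07 and did not pass.

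The conjugation system changed in 1 of 7 genes. Atg7, the E1-like enzyme that activates both ATG12 and the Atg8 proteins, had 36.2, 25.4, 30.0, 28.8 and 30.5 CPM in ATF4 libraries, against 22.9, 17.7, 26.5, 20.5 and 21.5 CPM in GFP libraries. ATF4 replicate 2 lay below GFP replicate 3, the rest of the ATF4 libraries lay above all GFP libraries, and the log2 fold change was 0.47 ± 0.12 (edgeR adjusted p = 0.00654). The E2-like genes Atg3 and Atg10, the ubiquitin-like Atg12, and Atg5, Atg16l1 and Atg16l2 of the conjugate that acts as an E3 had log2 fold changes of -0.24 (Atg10) to -0.02 (Atg3), and none was called. Atg10 passed only without ATF4 replicate 3 (edgeR adjusted p = 0.0177, within 0.0177 to 0.259 over the 24 settings).

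Of the 4 Atg4 proteases, which trim Atg8 proteins and release them from membranes, Atg4d fell. It had 59.0, 58.2, 78.0, 70.4 and 66.8 CPM in ATF4 libraries, against 76.6, 80.8, 88.4, 87.3 and 96.6 CPM in GFP libraries. The groups overlapped by 1 library on each side, and the log2 fold change was -0.37 ± 0.12 (edgeR adjusted p = 0.0210). Without ATF4 replicate 1 or GFP replicate 5 the adjusted p was 0.0588 or 0.0549, within 0.00129 to 0.0588 over the 24 settings. Atg4a, Atg4b and Atg4c had log2 fold changes of 0.40, -0.02 and -0.24 and were not called. Atg4a, at 9.16 ± 2.00 CPM in ATF4 and 6.95 ± 1.11 CPM in GFP (SD, n = 5 each), had the 95% bound farthest from no change among the members that did not pass, at 1.72-fold. It passed only without ATF4 replicate 2 (edgeR adjusted p = 0.0493, within 0.0493 to 0.230 over the 24 settings).

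The Atg8 family, whose proteins coat the autophagosome, changed in both directions. Map1lc3a, its most abundant transcript, had 385, 334, 497, 465 and 383 CPM in ATF4 libraries, against 545, 657, 538, 651 and 539 CPM in GFP libraries. All ATF4 libraries lay below all GFP libraries, and Map1lc3a fell by 0.51 ± 0.11 on the log2 scale (edgeR adjusted p = 0.00171). Gabarapl1, a GABARAP relative, had 103, 97.0, 91.5, 94.2 and 80.3 CPM in ATF4 libraries, against 50.4, 71.5, 51.3, 47.3 and 49.9 CPM in GFP libraries. All ATF4 libraries lay above all GFP libraries, GFP replicate 2 included, and the log2 fold change was 0.78 ± 0.17 (edgeR adjusted p = 0.00188). Map1lc3b, which encodes LC3B, the form most often followed as an autophagosome marker, had 263, 308, 255, 289 and 253 CPM in ATF4 libraries, against 218, 277, 228, 245 and 252 CPM in GFP libraries. Its groups overlapped and it was not called (log2 fold change 0.16 ± 0.09, edgeR adjusted p = 0.195). Gabarap and Gabarapl2 gave log2 fold changes of 0.10 and 0.05 and were not called either.

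As a description, with no test since it was chosen after the values were seen, the make-up of the family differed between the groups. On the scale of CPM per kilobase, Map1lc3a made up 49.0 ± 3.63% of the 5 Atg8 transcripts in ATF4 (43.5 to 53.2%), 59.7 ± 1.19% in DDIT3 (58.3 to 60.9%) and 61.1 ± 1.41% in GFP (59.7 to 63.2%). Gabarapl1 made up 6.59 ± 0.851% in ATF4, 3.64 ± 0.929% in DDIT3 and 3.32 ± 0.419% in GFP. Map1lc3b made up 20.1 ± 2.81% in ATF4, 14.5 ± 0.533% in DDIT3 and 15.6 ± 0.916% in GFP. The ranges of the Map1lc3a share did not overlap between ATF4 and either of the other groups. The summed level of the family was 803 ± 74.6 CPM per kilobase in ATF4, 944 ± 51.6 in DDIT3 and 917 ± 90.2 in GFP (SD, n = 5 each). A share moves when any member moves, so these percentages restate the same counts.

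**Figure D3:**
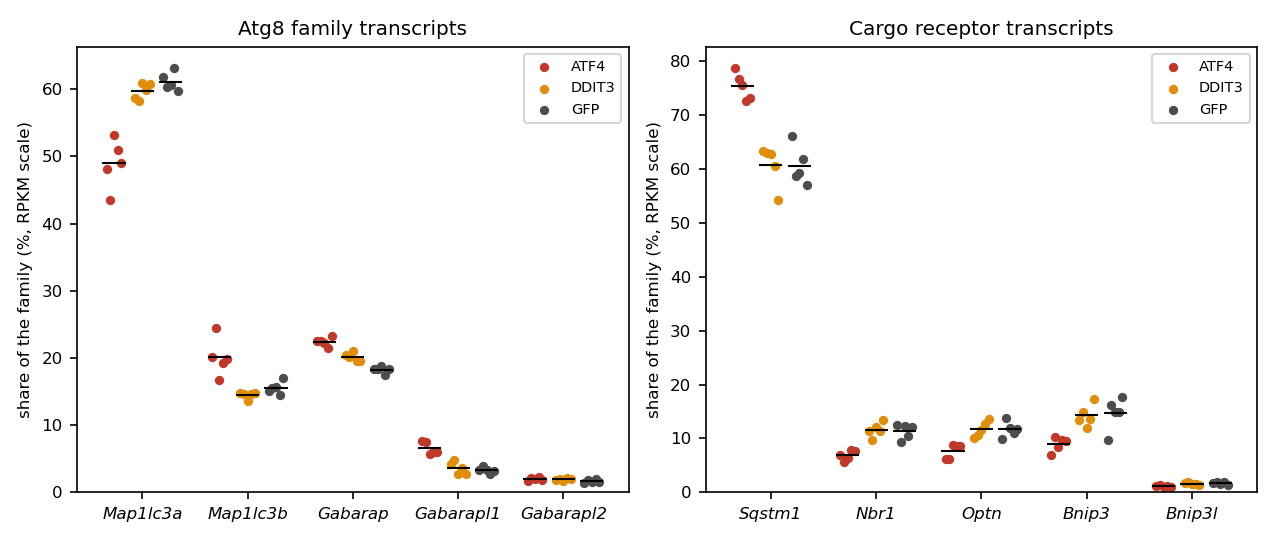
Percentage of each family's summed CPM per kilobase held by each member, for the 5 Atg8 proteins and the 5 cargo receptors, in ATF4, DDIT3 and GFP; points are the 5 libraries of a group and lines are their means. Map1lc3a holds 49.0% of the Atg8 sum in ATF4 and 61.1% in GFP, and Sqstm1 holds 75.3% of the receptor sum in ATF4 and 60.5% in GFP.

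Of the 5 cargo receptors, only Sqstm1 was called. It had 1080, 1140, 875, 879 and 911 CPM in ATF4 libraries, against 568, 515, 460, 496 and 540 CPM in GFP libraries. The groups did not overlap, and the fold change was 1.89 with a 95% interval of 1.60 to 2.24 (edgeR adjusted p = 8.81e-06). Nbr1, which like p62 binds ubiquitin-tagged cargo, averaged 227 ± 26.1 CPM in ATF4 and 248 ± 37.4 CPM in GFP. Optn, another ubiquitin-binding receptor, averaged 118 ± 11.6 CPM in ATF4 and 120 ± 19.2 CPM in GFP (SD, n = 5 each). The mitochondrial receptors Bnip3 and Bnip3l averaged 102 ± 20.4 and 24.5 ± 5.31 CPM in ATF4, and 110 ± 27.4 and 23.6 ± 3.73 CPM in GFP. These 4 receptors had log2 fold changes of -0.13 (Nbr1) to 0.05 (Bnip3l), with edgeR adjusted p from 0.420 to 0.877. Sqstm1 made up 75.3 ± 2.53% of the receptor sum per kilobase in ATF4, 60.8 ± 3.75% in DDIT3 and 60.5 ± 3.57% in GFP, a description like that of the Atg8 shares.

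Tfeb, a transcription factor that switches on lysosomal and autophagy genes, had 44.1, 42.1, 50, 46.7 and 48.5 CPM in ATF4 libraries, against 56.1, 51.1, 54.1, 58.6 and 62.6 CPM in GFP libraries. The libraries did not overlap, yet the log2 fold change of -0.29 ± 0.11 did not pass (edgeR adjusted p = 0.0576). It did pass without any 1 of DDIT3 replicates 1, 2 and 5 and GFP replicate 2 (adjusted p 0.0458 to 0.0497, within 0.0125 to 0.128 over the 24 settings, 8 of which called it). The 25 members that were not called had log2 fold changes of -0.29 to 0.40, and for 18 of them the 95% interval stayed within 0.5 of 0 on the log2 scale. At the same threshold the authors' deposited table had 6 members higher and 5 lower. It differed from the edgeR calls for Wipi2 (adjusted p = 0.0683 in the authors' deposited table) and Tfeb (log2 fold change -0.31, adjusted p = 0.0177 in the authors' deposited table).

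**Figure D4:**
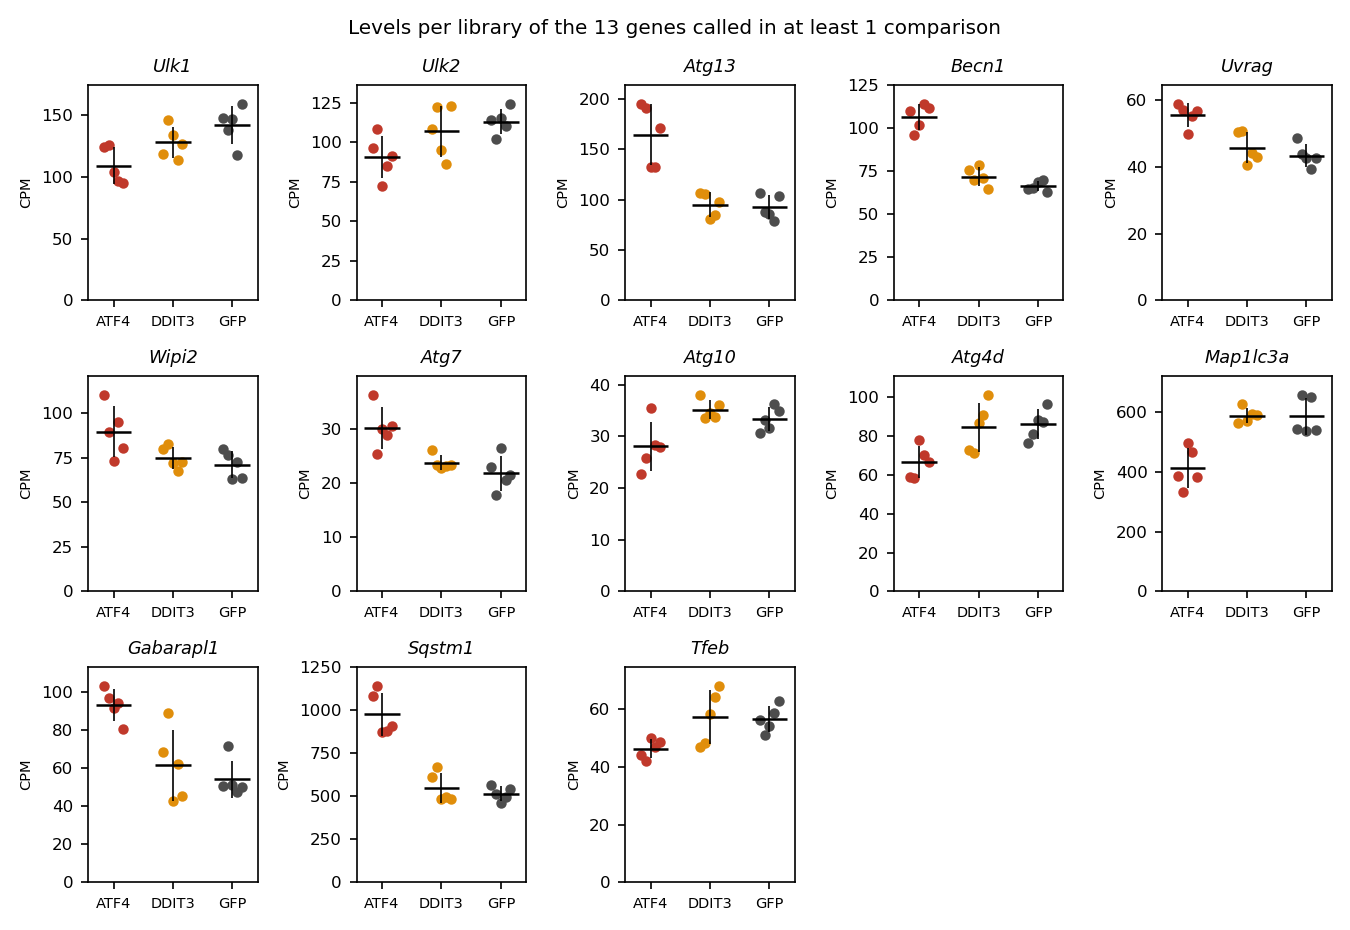
CPM (vertical axis) of the 13 members called in at least 1 comparison, with ATF4, DDIT3 and GFP side by side in every panel; points are the 5 libraries of a group, horizontal lines are means and vertical lines are SD. For Sqstm1, Becn1 and Atg13 the ATF4 points lie above all others, for Map1lc3a they lie below, and the DDIT3 and GFP points overlap.

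In the RefSeq annotation (GRCm38.p6) Sqstm1 spans chr11:50200152-50210820, Becn1 chr11:101288258-101302286, Atg13 chr2:91674612-91710597, Map1lc3a chr2:155276364-155278073 and Gabarapl1 chr6:129533192-129542331. Antisense neighbours limit 3 of the members, because the kit does not mark strand. The share of a member's exon bases that an opposite-strand gene also covers in the GENCODE vM21 annotation was 43.9% for Becn1 (with Cntd1), 28.3% for Gabarapl1 (with 1700101I11Rik) and 19.3% for Atg4d (with Kri1). These shares are of all annotated exons together, which run longer than the gene length in the deposited table. For Becn1 that was 7065 exon bases against a length of 2031, for Gabarapl1 2013 against 1773 and for Atg4d 7264 against 2541. The shared part of the counted length was not measured. Cntd1 was counted at 0.628 CPM in ATF4 and 0.291 CPM in GFP, and 1700101I11Rik at 1.13 CPM in ATF4 and 0.767 CPM in GFP. Kri1 stood at 7.79 CPM in ATF4 and 4.70 CPM in GFP and was not called (log2 fold change 0.73 ± 0.29, edgeR adjusted p = 0.0654).

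E-box here means the run of letters CACGTG, which TFEB can bind, and other forms of the E-box were not searched. The promoters of 2 of the risers, Sqstm1 and Gabarapl1, and of Bnip3, not called, are shown as examples without and with it. They run from 250 bases before to 50 bases after a start site that is the outer end of the gene, from RefSeq (GRCm38.p6), read 5′ to 3′ on the gene's strand, with the E-box in capitals. Sqstm1 is at chr11:50210771-50211070 on the minus strand, Gabarapl1 at chr6:129532942-129533241 on the plus strand and Bnip3 at chr7:138909457-138909756 on the minus strand.
Sqstm1: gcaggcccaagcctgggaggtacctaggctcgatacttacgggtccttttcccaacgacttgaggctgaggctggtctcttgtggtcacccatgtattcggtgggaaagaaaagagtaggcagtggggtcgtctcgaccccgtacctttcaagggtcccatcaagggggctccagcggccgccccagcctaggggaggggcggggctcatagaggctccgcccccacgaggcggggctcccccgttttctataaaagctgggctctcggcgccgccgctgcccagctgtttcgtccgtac
Gabarapl1: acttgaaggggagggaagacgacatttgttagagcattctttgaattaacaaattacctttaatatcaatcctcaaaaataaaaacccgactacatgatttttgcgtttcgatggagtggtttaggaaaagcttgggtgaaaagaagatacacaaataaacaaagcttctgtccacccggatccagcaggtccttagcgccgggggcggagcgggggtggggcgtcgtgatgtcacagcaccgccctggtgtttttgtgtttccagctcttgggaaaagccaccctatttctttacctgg
Bnip3: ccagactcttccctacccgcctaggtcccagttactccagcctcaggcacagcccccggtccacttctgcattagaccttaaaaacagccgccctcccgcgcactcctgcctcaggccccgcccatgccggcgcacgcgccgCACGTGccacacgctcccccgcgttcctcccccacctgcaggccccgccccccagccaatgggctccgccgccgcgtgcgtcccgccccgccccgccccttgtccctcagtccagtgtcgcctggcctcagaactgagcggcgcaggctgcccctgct
The E-box of Bnip3 begins 108 bases before the start, and Sqstm1 and Gabarapl1 hold none in these windows. RefSeq promoters were found for 29 of the 36 members, and the called members Becn1 and Map1lc3a were among the 7 without. CACGTG, the same on both strands, was in 5 of the 29 (17.2%: Atg3, Atg5, Atg7, Atg14 and Bnip3), against 8.09% of 27025 genes and 12.1% of the tested genes with a promoter. Of these 5 genes only Atg7 was called in ATF4 against GFP, and its RefSeq window belongs to a start 27969 bases inside the gene and not to the gene's outer start, which was not searched. TGATGNAA, the core of the composite site that C/EBP and ATF factors bind together, was searched on both strands. It was in 0 of the 29, against 4.51% of all genes and 2.80% of the tested ones. In so few genes a count of 0 lies near these shares. A match is a run of letters in a short window and does not show binding, and its absence says nothing of sites elsewhere.

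For DDIT3 the same question got no call. None of the 36 members passed in DDIT3 against GFP by edgeR, against 0.863% of all tested genes (0.525% called higher and 0.339% called lower). None passed by DESeq2 or in the authors' deposited table, where the lowest adjusted p of a member was 0.454. At an unadjusted p under 0.05 there was 1 member, Gabarap, with 211, 234, 211, 208 and 204 CPM in DDIT3 libraries, against 174, 215, 179, 194 and 179 CPM in GFP libraries. These ranges overlapped, and its edgeR adjusted p was 0.512. Its unadjusted p ranked 1134 among the 11814 tested genes, so that at least 1134 genes passed that unadjusted cut. The log2 fold changes ran from -0.15 (Ulk1) to 0.27 (Gabarapl2), with a median of 0.03 (0.00354 over all tested genes) and a median size of 0.07 (0.13 over all tested genes). The groups overlapped for all 36 members, while in 1.68% of all tested genes every DDIT3 library lay above every GFP library and in 1.18% below.

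The members that ATF4 moved most stayed near GFP in the DDIT3 libraries. Sqstm1 had 612, 671, 483, 494 and 482 CPM in DDIT3 libraries and Becn1 75.5, 69.9, 78.6, 71.2 and 64.5 CPM, with log2 fold changes of 0.09 ± 0.12 and 0.12 ± 0.09 against GFP. Atg13 (95.1 ± 12.1 CPM in DDIT3, 92.6 ± 12 in GFP), Gabarapl1 (61.5 ± 18.7 CPM in DDIT3, 54.1 ± 9.87 in GFP) and Map1lc3a (589 ± 25.1 CPM in DDIT3, 586 ± 62.1 in GFP) differed from GFP by less than 1 SD of the DDIT3 libraries (SD, n = 5 each). The 95% interval stayed within 0.5 of 0 on the log2 scale for 33 of 36 members, and the farthest bound, for Gabarapl2, was 1.53-fold. A p that missed the threshold does not show that the values were equal. The number of genes called over the whole table, 102, lay between 55 and 146 when single libraries were left out, the lowest counts (55 to 65) coming without DDIT3 replicates 1, 2 or 3 or GFP replicates 1, 3 or 4, and was 322 with the replicate number as a block and 228 by DESeq2, while the count of members stayed at 0.

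The third comparison set ATF4 against DDIT3 and called 6 members higher (Atg13, Becn1, Uvrag, Atg7, Gabarapl1 and Sqstm1; 17.8% of all tested genes were called higher). It called 4 lower (Atg10, Atg4d, Map1lc3a and Tfeb; 16% were called lower) and 26 neither way. Together that is 27.8% of the members, against 33.8% of all tested genes, again near the background. It shares its ATF4 libraries with the first comparison, so that the 2 sets of calls are not independent. Sqstm1 (log2 fold change 0.83 ± 0.12, edgeR adjusted p = 2.71e-05), Becn1 (0.57 ± 0.09, adjusted p = 5.76e-05) and Atg13 (0.79 ± 0.13, adjusted p = 1.67e-04) had no overlap between the groups (background 12.3% above and 10.3% below). Gabarapl1 had a log2 fold change of 0.60 ± 0.17 (by edgeR, adjusted p = 0.0111) with overlapping groups, DDIT3 replicate 2 standing at 88.8 CPM. Map1lc3a had 385, 334, 497, 465 and 383 CPM in ATF4 libraries, against 564, 627, 569, 593 and 589 CPM in DDIT3 libraries, with no overlap and a log2 fold change of -0.51 ± 0.11 (by edgeR, adjusted p = 0.00149).

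The other 5 calls of ATF4 against DDIT3 were closer to the threshold. Uvrag had a log2 fold change of 0.28 ± 0.10 and Atg7 of 0.34 ± 0.12 (edgeR adjusted p = 0.0300 and 0.0344). Atg10, the E2-like enzyme for ATG12, had 22.8, 25.8, 35.6, 28.4 and 27.9 CPM in ATF4 libraries, against 38.0, 33.6, 34.6, 33.8 and 36 CPM in DDIT3 libraries. ATF4 replicate 3 stood within the DDIT3 range and the rest below it, and the log2 fold change was -0.32 ± 0.11 (edgeR adjusted p = 0.0338). Tfeb had 44.1, 42.1, 50, 46.7 and 48.5 CPM in ATF4 libraries, against 47.0, 48.1, 58.3, 64.2 and 67.9 CPM in DDIT3 libraries. The groups overlapped, and Tfeb fell by 0.30 ± 0.11 on the log2 scale (edgeR adjusted p = 0.0443). Atg4d had a log2 fold change of -0.35 ± 0.12 (by edgeR, adjusted p = 0.0272).

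These 5 calls depended on single libraries. The number of members lower than in DDIT3 was 1 without ATF4 replicate 1, ATF4 replicate 2 or DDIT3 replicate 5, and 2 without ATF4 replicates 4 or 5 or DDIT3 replicate 4. Uvrag lost its call without any 1 of ATF4 replicates 1 and 5 and DDIT3 replicates 3, 4 and 5 (edgeR adjusted p 0.0610 to 0.0842). Atg7 lost it without ATF4 replicates 1 or 5 or DDIT3 replicates 2, 3, 4 or 5 (edgeR adjusted p 0.0604 to 0.108), and Atg10 lost it without ATF4 replicates 1, 2, 4 or 5 or DDIT3 replicates 1 or 5 (0.0517 to 0.0959). Tfeb lost it without any 1 of ATF4 replicates 1, 2, 4 and 5, DDIT3 replicates 3, 4 and 5 and GFP replicates 1, 3 and 4 (edgeR adjusted p 0.0512 to 0.129). Atg4d lost it without ATF4 replicates 1 or 2 or DDIT3 replicates 4 or 5 (0.0591 to 0.0829). Over the 24 settings the adjusted p ranged over 0.00779 to 0.0842 for Uvrag, 0.0132 to 0.108 for Atg7, 0.00455 to 0.0959 for Atg10, 0.0109 to 0.129 for Tfeb and 0.00231 to 0.0829 for Atg4d. With no filter on low counts Uvrag, Atg7, Atg10 and Tfeb lost their calls (edgeR adjusted p = 0.076, 0.068, 0.0558 and 0.065). With only the 10 libraries compared Uvrag, Atg10 and Tfeb lost theirs (edgeR adjusted p = 0.0502, 0.0652 and 0.0754). Atg10 also lost its call without ATF4 replicate 2 and DDIT3 replicate 2 together (edgeR adjusted p = 0.0692). Atg14 passed only without DDIT3 replicate 2, alone or together with ATF4 replicate 2 (edgeR adjusted p = 0.0179 and 0.0283), and Wipi2 without ATF4 replicate 3 (0.0326). With the replicate number as a block, 4 further members passed: Map1lc3b (log2 fold change 0.22, edgeR adjusted p = 0.0122) and Wipi2 (0.25, adjusted p = 0.0208) were higher, and Nbr1 (-0.23, adjusted p = 0.0355) and Ulk1 (-0.23, adjusted p = 0.0467) were lower.

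Side by side, 6 members were higher in ATF4 than in both DDIT3 and GFP, and Atg4d and Map1lc3a were lower than in both. Wipi2 (higher), Ulk1 and Ulk2 (lower) were called against GFP alone, Atg10 and Tfeb (lower) against DDIT3 alone, and 23 members were called in no comparison. Of all tested genes, 16.5% were called higher in ATF4 against GFP and 17.8% against DDIT3, and 15.6% and 16% were called lower. The share of all tested genes called in both comparisons was not counted, so these joint counts have no background beside them. For Ulk1 the DDIT3 libraries held 119, 146, 134, 114 and 127 CPM. Their mean of 128 CPM lay between the means of 109 CPM in ATF4 and 142 CPM in GFP, and neither difference from DDIT3 passed (edgeR adjusted p = 0.125 for ATF4 against DDIT3 and 0.747 for DDIT3 against GFP).

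A further 62 autophagy genes that act upstream, on the lysosome or as selective receptors, listed by function and all tested, were read the same way. In ATF4 against GFP 13 were higher and 5 lower (29.0%, against 32.2% of all tested genes). In DDIT3 against GFP 1 was higher and none lower (1.61%, against 0.863% of all tested genes). At an unadjusted p under 0.05 there were 4, while at least 1134 of the 11814 tested genes passed that cut. In ATF4 against DDIT3 11 were higher and 4 lower (24.2%, against 33.8% of all tested genes). Deptor, an inhibitor of mTOR, the kinase that restrains ULK1, had 67.2, 54.8, 55.3, 54.1 and 47.9 CPM in ATF4 libraries, against 8.72, 8.08, 6.74, 10.3 and 6.01 CPM in GFP libraries. The groups were far apart, with a log2 fold change of 2.80 ± 0.18 (by edgeR, adjusted p = 6.49e-10). Tfe3, a relative of Tfeb, averaged 31.7 ± 1.80 CPM in ATF4 and 18.6 ± 2.35 CPM in GFP (log2 fold change 0.77 ± 0.13, edgeR adjusted p = 1.85e-04), while Tfeb was not called in that comparison. Plekhm1, an adaptor for fusion with the lysosome, averaged 55.0 ± 4.75 CPM in ATF4 and 26.4 ± 4.12 CPM in GFP (log2 fold change 1.06 ± 0.12, edgeR adjusted p = 3.28e-06). These 3 were also higher in ATF4 than in DDIT3, with log2 fold changes of 3.02, 0.90 and 0.91, and so was Rheb, an activator of mTOR (0.65 ± 0.12, edgeR adjusted p = 5.43e-04).

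Stbd1, which tethers glycogen to autophagosomes, was the only gene of both lists called in DDIT3 against GFP. It had 61.3, 76.1, 64.4, 59.2 and 82.5 CPM in ATF4 libraries, 83.4, 45.4, 73.0, 52.8 and 92.6 CPM in DDIT3 libraries, and 18.1, 24, 39.2, 23.0 and 37.3 CPM in GFP libraries. All ATF4 and all DDIT3 libraries lay above all GFP libraries, with log2 fold changes of 1.28 ± 0.22 for ATF4 and 1.30 ± 0.22 for DDIT3 against GFP (edgeR adjusted p = 2.35e-04 and 0.00567). ATF4 and DDIT3 did not differ past the threshold for Stbd1, with a log2 difference of -0.02 and a 95% interval of -0.46 to 0.43.

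Of the genes that fell, Pink1, the kinase that marks damaged mitochondria for autophagy, had 808, 790, 740, 779 and 763 CPM in ATF4 libraries, against 986, 1200, 1010, 1130 and 1030 CPM in GFP libraries. The groups did not overlap, and it fell by 0.47 ± 0.09 on the log2 scale (edgeR adjusted p = 5.33e-04), and by 0.34 ± 0.09 against DDIT3 (adjusted p = 0.00641). The receptors on mitochondria Fundc1 (log2 fold change -0.44 ± 0.14, edgeR adjusted p = 0.0218) and Phb2 (-0.33 ± 0.11, adjusted p = 0.0260) and the membrane-bending Sh3glb1 (-0.29 ± 0.09, adjusted p = 0.0231) were also lower in ATF4 than in GFP. These 3 calls depended on single libraries. Fundc1 lost its call without ATF4 replicate 1 or GFP replicates 4 or 5 (edgeR adjusted p 0.0588 to 0.0605; 0.00523 to 0.0605 over the 24 settings). Phb2 lost it without ATF4 replicates 1, 2 or 5 or GFP replicates 3 or 4 (0.0504 to 0.0770; 0.00373 to 0.0770), and Sh3glb1 lost it without ATF4 replicate 1 or GFP replicate 2 (0.0508 and 0.0676; 0.00276 to 0.0676). The mitochondrial receptors Fundc1 and Bcl2l13 and Wdr45b, a relative of the WIPI genes, were lower in ATF4 than in DDIT3 (log2 fold changes -0.45, -0.40 and -0.34, edgeR adjusted p = 0.0184, 0.0379 and 0.0404). Against DDIT3, Fundc1 lost its call without ATF4 replicate 1 or DDIT3 replicate 5 (edgeR adjusted p = 0.0523 and 0.0538; 0.00405 to 0.0538 over the 24 settings). Bcl2l13 lost it without ATF4 replicates 1, 2, 3 or 4 or DDIT3 replicates 1 or 5 (0.0579 to 0.122; 3.48e-04 to 0.122), and Wdr45b lost it without ATF4 replicates 1 or 2 or DDIT3 replicates 1, 4 or 5 (0.0598 to 0.116; 0.00302 to 0.116). Wdr45b also lost it with no filter on low counts and with only the 10 libraries compared (edgeR adjusted p = 0.0518 and 0.0508). Of the genes named here outside the 36, Deptor, Plekhm1, Tfe3, Stbd1, Rheb and Pink1 kept their calls under all 24 settings.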

How the data were processed

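RNA was measured in 15 libraries, 5 for each vector. Libraries were made from polyA RNA with 2 kits, SMART-Seq v4 followed by Nextera XT, per the labels. SMART-Seq2 is named for 14 libraries and SMART-Seq3 for GFP replicate 5. STAR, featureCounts, DESeq2, DESeq and the build mm10 are named in the submitters' processing notes; the sources used here name no versions. The authors deposited raw read counts per gene for 23337 genes, and the gene length beside them (other unit) gave CPM per kilobase. Their 2 tables of comparisons with GFP hold, per the file headers, a mean signal, log2 fold changes and standard errors, a test score and p-values.

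Counts were tested with edgeR 4.0.16 in R 4.3.3 (filterByExpr, TMM factors, robust quasi-likelihood fit). The group was the sole term, with 12 residual degrees of freedom and a Benjamini-Hochberg threshold of 0.05. The procedure was checked on simulated data with independent libraries, a check that does not cover libraries that deviate together. CPM use TMM factors. Errors of levels are SD over 5 libraries and errors of fold changes are SE. Library totals ran from 6217744 to 8317249 counts. No pair of libraries was a copy (chi-square per degree of freedom 8.60 to 50.4). Groups came from the titles. By Xist and Y-chromosome genes, ATF4 and DDIT3 each held 1 female and 4 male libraries, and GFP held 2 female and 3 male. Each group thus drew on more than 1 animal. No label says that all libraries are separate animals, so p-values measure spread between samples that may be partly technical.

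The members, the 62 further genes, the markers, the tests and the alternatives were chosen with earlier results of these data known. The text gives every member, and of the further genes called, up to 4 in each direction with the lowest p. Same-numbered libraries deviated together in DDIT3 and GFP (5 of 5 correlations above 0.1, 0.205 to 0.511) and in ATF4 and DDIT3 (5 of 5, 0.135 to 0.497). The numbers may therefore pair these libraries, but the labels do not explain them. Of the DDIT3 libraries 5 of 5 correlated best with their own number in GFP, and of the ATF4 libraries 4 of 5 did in DDIT3. The main fit did not use the numbers in any comparison, and the replicate block is given as an alternative. Alternatives were DESeq2 1.42.0, other scaling factors, no filter, a non-robust dispersion, only the 10 libraries compared, sex as a factor, a replicate block and leaving out libraries.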

Additional observations from a re-analysis of the deposited data

Results flagged for a closer look

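In 4 of 108 sets of 5 libraries (36 members in 3 groups) 1 library stood apart from the other 4 by Dixon's test at 95%; chance gives about 1 in 20 sets. Atg14 had 37.2 CPM in DDIT3 replicate 2, against 20.4 to 22.6 CPM in the other DDIT3 libraries. Gabarap had 234 CPM in DDIT3 replicate 2, against 204 to 211 CPM in the others of that group. Atg7 had 26.1 CPM in DDIT3 replicate 1, against 22.8 to 23.4 CPM. Gabarapl1 had 71.5 CPM in GFP replicate 2, against 47.3 to 51.3 CPM in the other GFP libraries, and its ATF4 libraries (80.3 to 103 CPM) still lay above it.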

How the results depend on the processing

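No call of a member changed direction under the 24 alternatives. In ATF4 against GFP 8 of 11 calls held under all 24 (Atg13, Becn1, Uvrag, Atg7, Gabarapl1, Sqstm1, Map1lc3a and Ulk1), and in ATF4 against DDIT3 5 of 10 did (Atg13, Becn1, Gabarapl1, Sqstm1 and Map1lc3a). When single libraries were left out, members counted as higher numbered 6 to 8 in ATF4 against GFP and 4 to 7 in ATF4 against DDIT3, members counted as lower numbered 2 to 5 and 1 to 4 in the same comparisons, and all genes called numbered 3186 to 3854 and 3380 to 4093; in DDIT3 against GFP members stayed at 0 and all genes called numbered 55 to 146. DESeq2 called 228 genes in DDIT3 against GFP. Members lower in ATF4 against DDIT3 numbered 2 with no filter on low counts and 2 with only the 10 libraries compared; the cause was not tested. For the 62 further genes the counts over the alternatives were 11 to 19 higher and 1 to 9 lower in ATF4 against GFP, and 8 to 14 higher and 1 to 8 lower in ATF4 against DDIT3. DDIT3 against GFP had 1 higher and 0 lower throughout. These alternatives for them were added after the data were seen. Other scaling factors moved the median of all genes by at most 0.0188 on the log2 scale, in size. The 95% intervals of the 25 members not called in ATF4 against GFP reached 1.72-fold at the farthest (Atg4a), so that changes within those bounds may not have been detectable at this depth and spread.

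With the replicate number as a block, all genes called numbered 322 in DDIT3 against GFP, 5097 in ATF4 against GFP and 5228 in ATF4 against DDIT3. In ATF4 and GFP 4 of 5 same-numbered correlations exceeded 0.1 (0.0783 to 0.386), and 4 of 5 ATF4 libraries correlated best with their own number. Under the block Pik3c3 (log2 fold change 0.36, edgeR adjusted p = 0.0138) and Tfeb (-0.29, adjusted p = 0.0125) passed in ATF4 against GFP, so that 8 members were higher and 5 lower. In ATF4 against DDIT3 the block gave 8 higher and 6 lower, and beyond the 4 members named beside that comparison it changed no other call of a member.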
